A study of Mus musculus with 5 samples.

Results

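The genes described here were Cyp11a1, Akr1c18, Star, Fdx1, Fdxr and Crabp2, 6 of the 32285 genes listed for the tumor T cell libraries. They were selected on their UMI levels in these same libraries, where 3 of them had stood out, so the levels are given as descriptions and carry no test. Single cell RNA sequencing was done on T cells from 4T1 mammary tumors, which are grown from a mouse triple negative breast cancer line (here 4T1-Thy1.1) placed in a mammary fat pad of BALB/c mice, whose age is given for the samples as 12 weeks. All tumors of these libraries received doxorubicin (DOX) intravenously at 5 mg/kg in 3 doses given 3 days apart and were labelled DOX sensitive or DOX resistant. T cells were enriched with a pan T cell kit and by depletion of CD90.1, the mark carried by the cancer line, and 3 tumors were pooled for each library. There was 1 library in each group, so a difference between sensitive and resistant cannot be told apart from a difference between these pools. Intervals given below are 95% intervals that cover counting error only.

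Steroid synthesis starts in the mitochondrion. Star moves cholesterol to the inner membrane, and Cyp11a1 cleaves its side chain to give pregnenolone, using electrons that pass from Fdxr to Fdx1. Enzymes of the Hsd3b family turn pregnenolone into progesterone, and Akr1c18 reduces progesterone to a metabolite with little activity at the progesterone receptor. Crabp2 is no steroid enzyme, since it carries retinoic acid to the nuclear receptors. Among lymphocytes, Cyp11a1 is best known from T helper cells of type 2, which secrete Il4, Il5 and Il13 under the factor Gata3.

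In the mouse annotation (GRCm38, GENCODE), Cyp11a1 (ENSMUSG00000032323) lies on the plus strand at chr9:58006411-58027023, and Akr1c18 (ENSMUSG00000021214) on the minus strand at chr13:4132615-4150654. Fdx1 (ENSMUSG00000032051) lies at chr9:51943306-51963556, Fdxr (ENSMUSG00000018861) at chr11:115268024-115277050, Star (ENSMUSG00000031574) at chr8:25806555-25815982 and Crabp2 (ENSMUSG00000004885) at chr3:87948666-87953376. Cyp11a1 overlaps the noncoding gene Gm17322 on the same strand, and 3.06% of its transcript sequences of 31 bases also occur in other genes, most of them in Gm17322. For Akr1c18 this share was 4.15%, most often with its relative Akr1cl, and for the other members it was 0.226% or less. Reads from those stretches cannot be assigned with certainty.

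Promoter windows from RefSeq (GRCm38.p6), 250 bases before to 50 after the start site, were matched for 4 of the 6 members. Those of Cyp11a1 and Akr1c18 are shown because these genes were highest in the same T cell gate, in part in the same cells. Capitals mark letters of AGATA (the core read by GATA factors), AGGTCA (a half-site of nuclear receptors) and of TTC followed 4 bases on by GAA (the palindrome read by STAT6), searched on both strands. These motifs do not overlap one another here.

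Cyp11a1, chr9:58014702-58015001, plus strand: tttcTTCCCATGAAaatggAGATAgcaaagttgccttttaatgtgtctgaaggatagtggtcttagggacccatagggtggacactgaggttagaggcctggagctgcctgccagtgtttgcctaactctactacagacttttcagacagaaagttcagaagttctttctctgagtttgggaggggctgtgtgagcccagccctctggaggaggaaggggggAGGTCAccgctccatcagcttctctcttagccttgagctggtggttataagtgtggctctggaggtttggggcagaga
Akr1c18, chr13:4150597-4150896, minus strand: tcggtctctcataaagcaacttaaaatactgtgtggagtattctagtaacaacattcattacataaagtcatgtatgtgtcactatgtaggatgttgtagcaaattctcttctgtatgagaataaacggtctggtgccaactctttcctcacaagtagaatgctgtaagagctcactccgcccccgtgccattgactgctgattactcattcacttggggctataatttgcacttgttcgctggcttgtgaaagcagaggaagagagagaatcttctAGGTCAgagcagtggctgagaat

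The Cyp11a1 window held 1 match of each motif, and the Akr1c18 window held 1 match of AGGTCA and none of the others. Neither of the 2 Cyp11a1 windows lies at the start of the annotated gene span. The one printed is inside the span, and the other, chr9:57997774-57998073, lies before it, where Gm17322 begins. That other window and the windows of Fdx1 and Fdxr held none. Among 32851 windows of the same length, 29.6% held AGATA, 16.3% held AGGTCA and 6.95% held the palindrome, so single matches are common and describe the letters only.

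The T cell libraries held 31690845 unique molecular identifiers (UMIs, each 1 counted RNA molecule) in 3949 barcodes for sensitive tumors and 35908799 in 6116 for resistant tumors, of which 3448 and 3091 cells were kept. The resistant library carried more mitochondrial RNA (median 8.95% against 2.47% of UMIs), and 45.7% of its barcodes exceeded the 10% limit against 5.90%. The libraries shared 31 barcodes. Cells were gated by marker lists, which gave 1988 sensitive and 1834 resistant T cells. Every gene of the 8-gene T cell list was detected in both T cell gates, and summed fibroblast markers there stood at 73.8 and 33.9 CPM (UMIs of the gene per 1000000 UMIs of the gate). Both lists were used for gating, so these values follow in part from it. In spite of the enrichment, 829 and 609 fibroblasts remained. T cells with a Cd4 UMI and neither Cd8a nor Cd8b1 were called CD4, and split by whether they held a UMI of Il4 or Il13 (Il4/Il13+). The sensitive library had 66 Il4/Il13+ CD4 cells and 129 other CD4 cells, and the resistant library had 4 and 46. CD8 cells, gated on Cd8a or Cd8b1 without Cd4, numbered 1325 and 1561.

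Cyp11a1, the side chain cleavage enzyme, was concentrated in the Il4/Il13+ CD4 cells of the sensitive library. They held 188 of the 297 Cyp11a1 UMIs of all its T cells (63.3%), a level of 381 CPM (328 to 439). The other CD4 cells stood at 7.72 CPM (2.10 to 19.8) with 4 UMIs, and the CD8 cells at 0.767 CPM (0.249 to 1.79) with 5 UMIs. The level thus fell from Il4/Il13+ CD4 cells to other CD4 cells to CD8 cells, with intervals that did not overlap. Il4/Il13+ T cells in which neither Cd4 nor Cd8 was detected stood at 308 CPM (188 to 476), which overlapped the CD4 value. Of these 19 cells 3 held mast cell or basophil markers, 419 UMIs in all (6452 CPM), and the other 16 cells stood at 310.3 CPM (184 to 490.5) for Cyp11a1. T cells with both Cd4 and Cd8 UMIs, a gate with a median of 8606 UMIs a cell, stood at 58.2 CPM (45.3 to 73.6). Macrophages, neutrophils and cancer cells of the sensitive library held no Cyp11a1 UMI, which leaves levels up to about 1.30, 7.96 and 1.20 CPM at a floor of 3 counts.

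**Figure D1:**
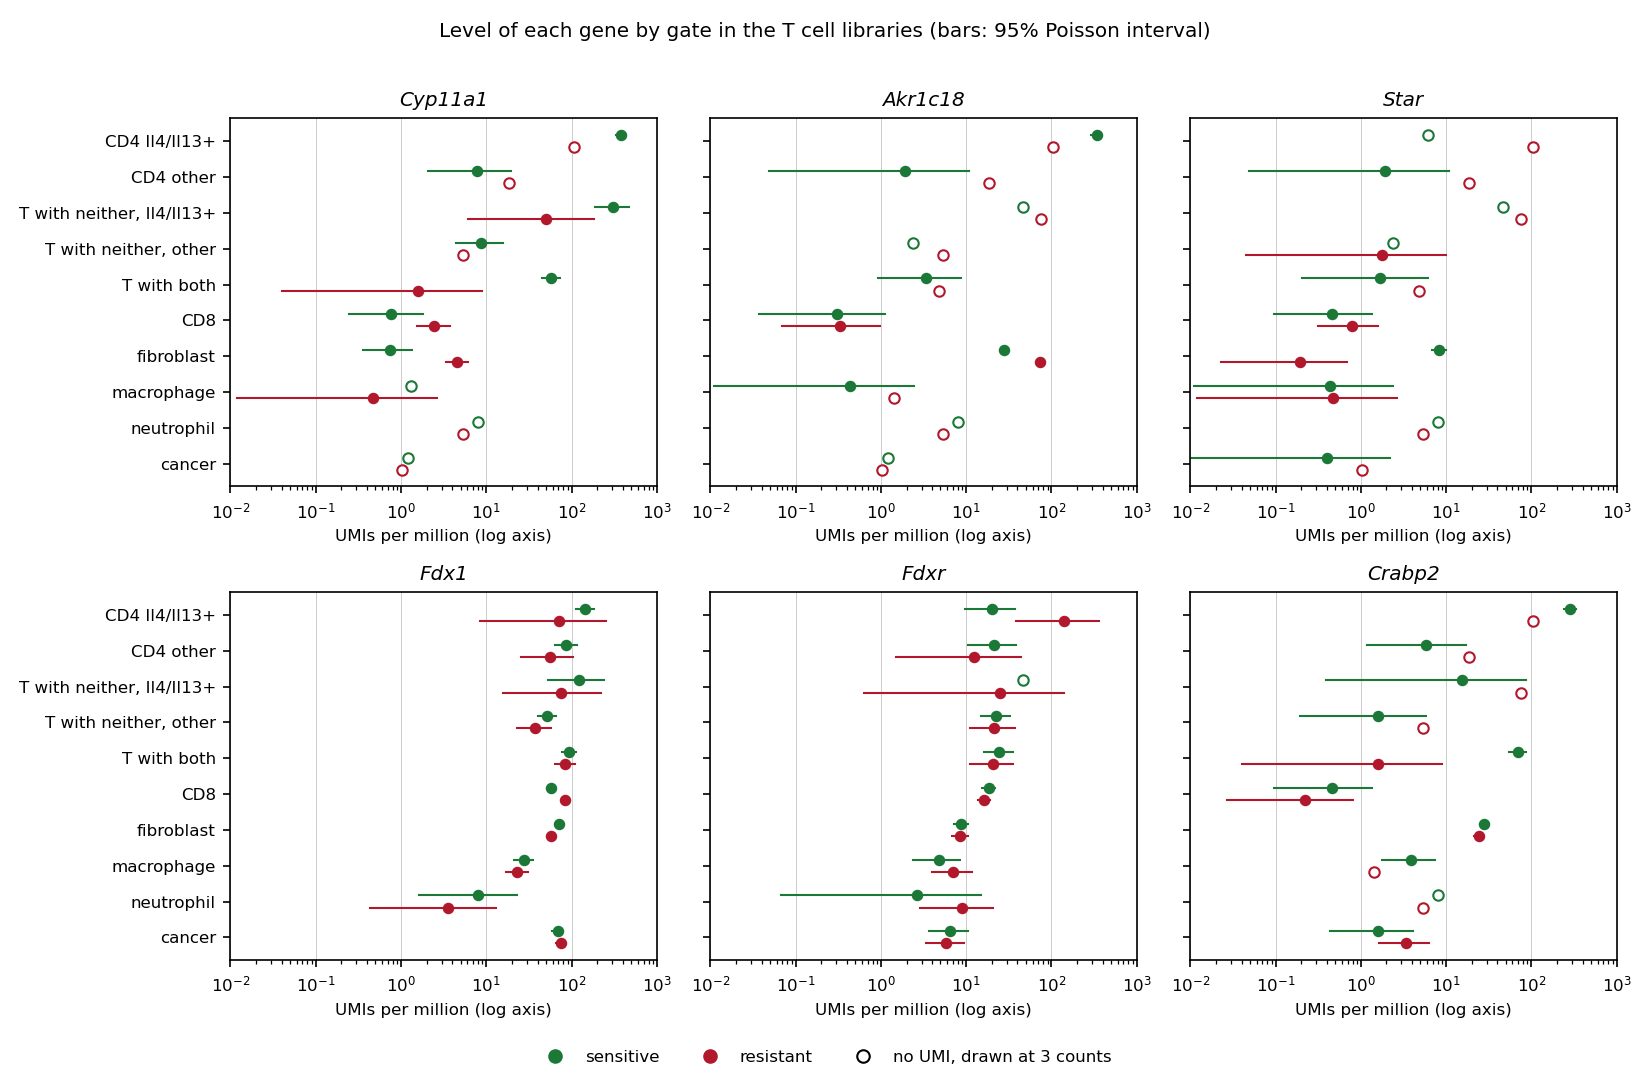
CPM of each gene (log axis) by gate in the sensitive (green) and resistant (red) T cell library. Points are levels, bars are Poisson 95% intervals, and open circles mark gates without a UMI, drawn at 3 counts. Cyp11a1, Akr1c18 and Crabp2 stood at 381, 338 and 286 CPM in the Il4/Il13+ CD4 cells of the sensitive library, while Fdxr lay between 18.4 and 21.2 CPM in its 3 main T cell gates.

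A Cyp11a1 UMI was found in 28 of the 66 Il4/Il13+ CD4 cells (42.4%, Clopper-Pearson interval 30.3 to 55.2%), against 4 of 129 other CD4 cells (3.10%) and 3 of 1325 CD8 cells (0.226%). The median depths of these gates were 5776, 3344 and 4039 UMIs a cell. With each cell thinned to 1000 UMIs the counts were 11 of 66, 0 of 126 and 1 of 1317, so the Il4/Il13+ CD4 cells stayed highest at equal depth and the other gates were too sparse to order. The molecules were unevenly spread. The highest cells held 61, 20 and 15 Cyp11a1 UMIs, together 51.1% of the total, and 9 of the 28 positive cells held 1 UMI each. Positive cells were also deeper than the rest of the gate, with a median of 7293 against 4640 UMIs.

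Across all 1988 sensitive T cells, 66 had a Cyp11a1 UMI. Of these, 63 had Gata3, 40 had Il13, 30 had Il4 and 48 had Il4 or Il13, whereas Gata3 was found in 26.0% and Il4 or Il13 in 6.64% of all the T cells. Hdc, the enzyme that makes histamine, was present in 25 of the 66. Foxp3, the factor of regulatory T cells, was present in 2. The 66 cells were deeper than the other T cells, with a median of 7071 against 3917.5 UMIs, and the part of depth in these shares was not tested. Il4/Il13 status thus did not capture every Cyp11a1+ cell, since 18 of them held neither transcript. A further 81 Cyp11a1 UMIs lay in 13 cells of the sensitive library that passed no lineage gate, and these cells are in none of the comparisons. Mast cell or basophil markers stood at 11988 CPM over the 153 cells without a lineage, with 9818 UMIs in 44 of them.

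Akr1c18, which inactivates progesterone, had an even narrower distribution among T cells. The Il4/Il13+ CD4 cells of the sensitive library held 167 of 174 T cell UMIs (96.0%), at 338 CPM (289 to 394). Other CD4 cells held 1 UMI and CD8 cells held 2, which put them at 1.93 CPM (0.0489 to 10.8) and 0.307 CPM (0.0371 to 1.11). Only 6 of the 66 Il4/Il13+ CD4 cells were positive (9.09%, 3.41 to 18.7%), and they held 78, 42, 36, 7, 2 and 2 UMIs. The level of the gate therefore rested on 3 cells with 93.4% of its UMIs. The cell with 78 UMIs also held 161 UMIs of Mcpt8, a protease of basophils, beside 20 UMIs of Il13, 6 of Cd4 and 73 of the T cell list. It held no Cyp11a1 UMI, whereas the cells with 42, 36 and 7 UMIs of Akr1c18 held 14, 2 and 2 of Cyp11a1. Without the 6 cells of the gate that held any mast cell or basophil marker, Akr1c18 stood at 188 CPM (151 to 233).

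Crabp2, the retinoic acid carrier, stood at 286 CPM (240 to 337) in the Il4/Il13+ CD4 cells of the sensitive library, with 141 UMIs. Other CD4 cells held 3 UMIs (5.79 CPM, 1.19 to 16.9) and CD8 cells 3 UMIs (0.460 CPM, 0.0949 to 1.34). It was present in 12 of the 66 cells (18.2%, 9.76 to 29.6%), of which 8 also had Cyp11a1 and 3 had Akr1c18. The cell with the most Crabp2 (85 UMIs) was also the cell with the most Cyp11a1 (61), and it held 606 UMIs of Il4 and 973 of Il13. Cells with both Cd4 and Cd8 UMIs held a further 82 Crabp2 UMIs in 11 cells. For the whole list of fibroblast markers, 13 UMIs were counted in the 66 Il4/Il13+ CD4 cells, and Col1a2, Lum, Pdgfra and Pdgfrb were at 0. The list helped to set the T cell gate, so a low sum follows in part from the gating. The cell with 85 Crabp2 UMIs had none of the list.

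**Figure D2:**
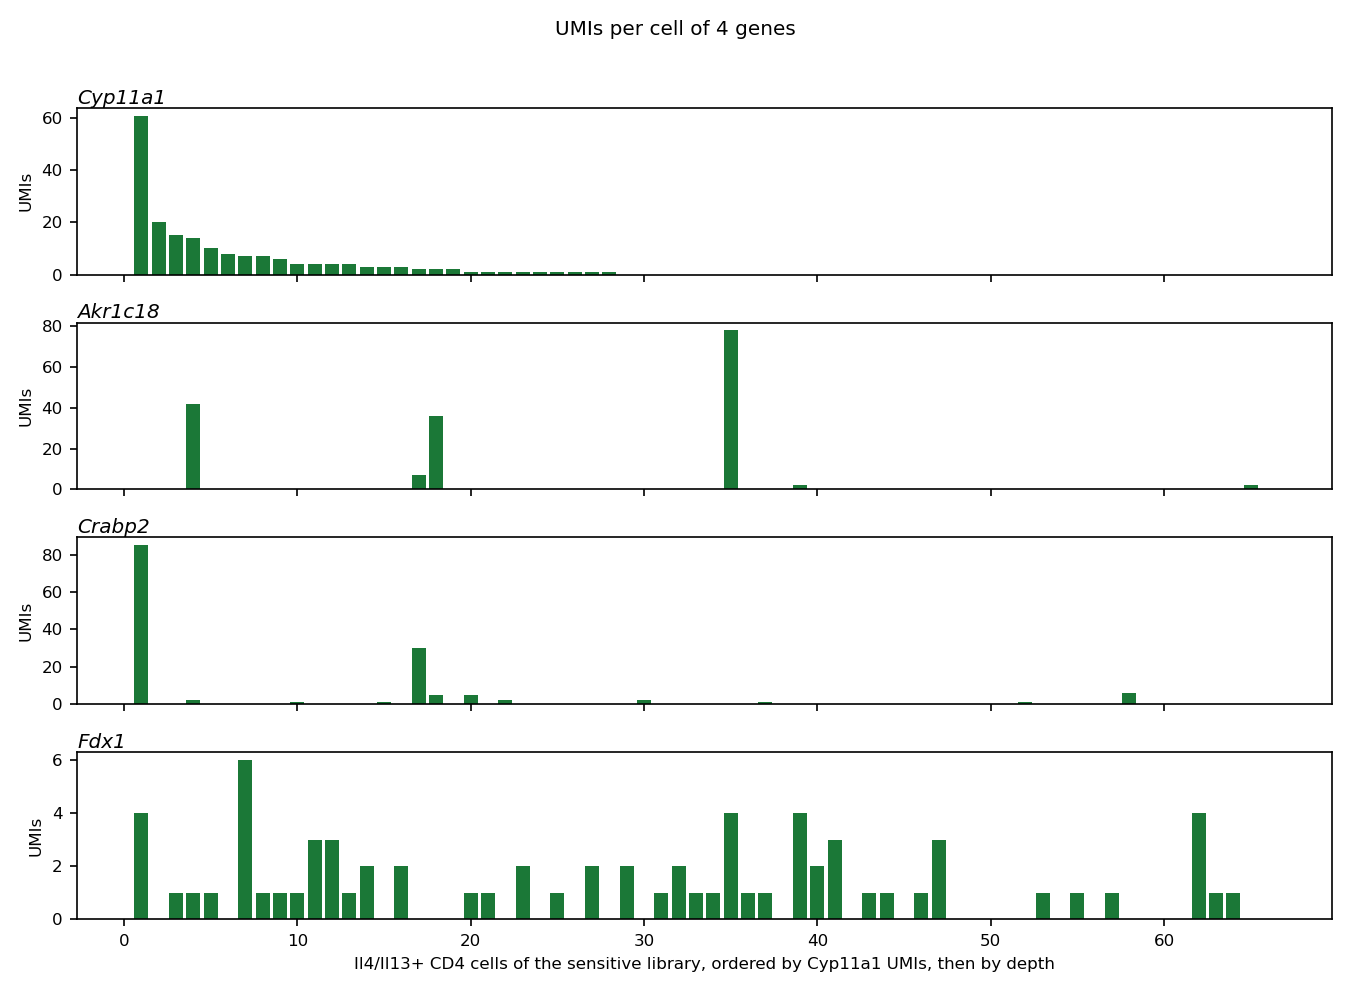
UMIs per cell of Cyp11a1, Akr1c18, Crabp2 and Fdx1 in the 66 Il4/Il13+ CD4 cells of the sensitive library, each bar 1 cell, ordered by Cyp11a1 and then by depth. Cyp11a1 falls off over 28 cells from 61 UMIs, Akr1c18 and Crabp2 lie in 6 and 12 cells with maxima of 78 and 85, and Fdx1 is spread over 39 cells with at most 6 UMIs.

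The electron carriers of Cyp11a1 were expressed widely. Fdx1 was found in 39 of 66 Il4/Il13+ CD4 cells (59.1%), 24 of 129 other CD4 cells (18.6%) and 267 of 1325 CD8 cells (20.2%), at 144 CPM (112 to 181), 86.8 CPM (63.3 to 116) and 58.0 CPM (52.3 to 64.1). With each cell thinned to 1000 UMIs, Fdx1 was found in 11 of 66, 8 of 126 and 68 of 1317 of these cells. The level was highest where Cyp11a1 was highest, although its interval overlapped that of the other CD4 cells, and 18 of the 28 Cyp11a1+ cells of the gate had a Fdx1 UMI against 21 of the other 38. Fdxr, the reductase that feeds Fdx1, stood at 20.3 CPM (9.71 to 37.2), 21.2 CPM (10.6 to 38.0) and 18.4 CPM (15.3 to 22.0) in the same gates, whose intervals overlapped. Star was at or near 0 in T cells of both libraries, with 6 UMIs in 6 sensitive and 8 UMIs in 8 resistant cells. None of these Star UMIs lay in an Il4/Il13+ CD4 cell, which at a floor of 3 counts leaves up to 6.08 CPM in the sensitive library.

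Within the sensitive library, Il4/Il13+ CD4 cells were set against other CD4 cells for 5519 genes with at least 20 UMIs over both sides. Of the 5 members with that many UMIs, 3 were at least 2-fold higher (Cyp11a1, Akr1c18 and Crabp2) and none was 2-fold lower, where 4.06% of all these genes were higher and 9.69% lower. The ratio was 49.3 (18.9 to 183) for Cyp11a1, 175 (31.03 to 6964) for Akr1c18 and 49.3 (16.5 to 242) for Crabp2. These ratios are imprecise, because the other CD4 cells held only 4, 1 and 3 UMIs, and that of Crabp2 was 11.2 without cells over 10000 UMIs. At 1000 UMIs a cell the ratio was at least 7.64 for Cyp11a1 and 26.7 for Akr1c18. There the Crabp2 ratio was 3.82 with an interval that included 1 (0.547 to 42.2), so its difference between these gates was not detectable at equal depth. Fdx1 had a ratio of 1.66 (1.12 to 2.46), which was 2.97 (1.20 to 7.78) at 1000 UMIs a cell, and Fdxr of 0.954 (0.363 to 2.47). Both were under 2-fold at full depth. Star was not eligible.

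Against CD8 cells, 4 of 5 eligible members were at least 2-fold higher in Il4/Il13+ CD4 cells and none lower, where 7.49% of 9845 genes were higher and 13.4% lower. The ratios were 496 (209 to 1547) for Cyp11a1, 1102 (300.5 to 9179) for Akr1c18 and 621 (208 to 3045) for Crabp2, which was 131 without cells over 10000 UMIs. Over all alternatives the Cyp11a1 ratio lay between 210.2 and 1496, and at 1000 UMIs a cell that of Akr1c18 fell to 279 and that of Crabp2 to at least 26.6. Fdx1 was the fourth, at 2.48 (1.90 to 3.20), and Fdxr stood at 1.10 (0.514 to 2.09). Since the members were chosen with these values known, the counts describe them and support nothing further. Markers of other lineages were counted inside the Il4/Il13+ CD4 gate. The neutrophil and dendritic cell lists helped to set the T cell gate, so low sums of them follow in part from the gating. The mast cell or basophil, NK cell, regulatory T cell and innate lymphoid lists were not used to gate. Of 12 mast cell or basophil genes 4 were detected, with 173 UMIs (350 CPM) in 6 of 66 cells. Mcpt8 gave 161 of these UMIs, and Mcpt1, Mcpt2 and Kit gave the rest. Mcpt4, Cpa3, Fcer1a, Ms4a2, Gata2, Tpsb2, Cma1 and Prss34 were at 0. NK cell genes amounted to 20 UMIs in 2 cells. The 4-gene regulatory T cell list gave 546 UMIs in 56 cells, of which Ctla4, an inhibitory receptor, gave 350. Il2ra and Ikzf2 gave the rest, while Foxp3 was at 0. The neutrophil list gave 395 UMIs in 36 cells, of which 392 were of Il1r2, a decoy receptor of interleukin 1. S100a9 and Mmp9 gave the rest, while S100a8, Csf3r, Cxcr2, Retnlg and G0s2 were at 0. The dendritic cell list gave 82 UMIs in 11 cells, 68 of them of Ccr7. Flt3 and Cd209a gave the rest, while Xcr1, Clec9a, Siglech, Fscn1 and Ccl22 were at 0. Genes used to mark group 2 innate lymphoid cells summed to 287 UMIs, of which Il7r, which T cells also express, gave 205. Without the 6 cells that held a mast cell or basophil marker, the gate kept 187 of its 188 Cyp11a1 UMIs (405 CPM, 349 to 468), 87 of its 167 Akr1c18 UMIs and all 141 of its Crabp2 UMIs. The part of the other lists in the levels was not tested.

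Between libraries, the same 3 members were higher in sensitive T cells. Cyp11a1 counted 297 UMIs (29.6 CPM) in sensitive T cells and 25 UMIs (2.41 CPM) in resistant ones, a ratio of 12.3 (8.17 to 19.3). Akr1c18 counted 174 and 3 UMIs, a ratio of 60.1 (20.2 to 294), and Crabp2 counted 232 and 3, a ratio of 80.1 (27.1 to 391). At 1000 UMIs a cell the Akr1c18 ratio was 15.8 and that of Crabp2 13.9. Leaving out cells over 10000 UMIs brought Crabp2 to 16.1, and leaving out cells with a mast cell or basophil marker brought Cyp11a1 to 137. Thus 3 of 5 eligible members were at least 2-fold higher and none was lower, where 4.93% of 11358 genes were higher and 1.36% lower. The median gene had a ratio of 1.11, a shift of 0.15 on the log2 scale. Fdx1 was lower in the sensitive library, at 67.6 against 81.1 CPM (ratio 0.833, 0.752 to 0.923), and Fdxr was close to the median gene at 1.15 (0.931 to 1.41). The Star ratio of 0.777 (0.222 to 2.55) rested on 14 UMIs.

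The share of T cells with Il4 or Il13 differed in the same direction. It was 132 of 1988 sensitive T cells (6.64%, 5.58 to 7.82%) and 20 of 1834 resistant T cells (1.09%, 0.667 to 1.68%). Fewer cells of a type and less RNA per cell can therefore be separated only inside this gate. Among Il4/Il13+ T cells of any Cd4 and Cd8 status, a comparison added after the data were seen, Cyp11a1 stood at 233 CPM (206 to 263) in sensitive cells, 48 of 132 of them positive, and at 152 CPM (95.3 to 230.2) in resistant cells, 5 of 20 of them positive. The interval of the ratio, 1.53 (0.992 to 2.49), included 1. The sides of this ratio differed in mast cell or basophil markers, which stood at 45823 CPM in the resistant cells (6630 UMIs, in 9 of 20 cells) and 760 CPM in the sensitive cells (853 UMIs, in 22 of 132). Without the cells that held such a marker, Cyp11a1 counted 245 UMIs in 110 sensitive and 2 UMIs in 11 resistant cells, a ratio of 9.45 (2.59 to 78.5). Over all 132 and 20 cells Fdxr was lower in the sensitive library, with 22 against 8 UMIs and a ratio of 0.354 (0.152 to 0.920), and Fdx1 was at 1.01 (0.625 to 1.73). In the resistant library itself, these 20 cells held 22 of 25 Cyp11a1 UMIs, against 3 UMIs in the other 1814 T cells. However, 20 of these 22 UMIs lay in cells with a mast cell or basophil marker, so the resistant pattern rested on those cells. In the sensitive library 245 of the 262 Cyp11a1 UMIs of Il4/Il13+ T cells lay in cells without such a marker, at 264 CPM (232 to 299) against 3.85 CPM (2.62 to 5.47) in other T cells without one.

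Neither Akr1c18 nor Crabp2 had a UMI in the 20 resistant Il4/Il13+ T cells, against 170 and 206 UMIs in the 132 sensitive cells. With the resistant group set to a floor of 3 counts, the bounds of the ratios were 7.30-fold and 8.85-fold. Single sensitive cells held 78, 42 and 36 of the 170 Akr1c18 UMIs and 85 of the 206 Crabp2 UMIs. Bounds from summed UMIs take no account of such uneven spread over cells. Without cells holding a mast cell or basophil marker the bounds were 2.31-fold and 5.04-fold. The 170 and 206 sensitive UMIs came from 8 cells (6.06%) and 23 cells (17.4%), against 0 of 20 resistant cells. With the floor of 3 counts taken as 3 cells, this leaves a resistant share of up to 15%, which is not an interval limit. It exceeds the sensitive share for Akr1c18 and lies close to that for Crabp2, so the share of Akr1c18+ cells gave no direction. In the narrower CD4 gate only 4 resistant cells remained, all without Cyp11a1, Akr1c18 and Crabp2, and the bounds were at least 3.60-fold, 3.20-fold and 2.70-fold. At 1000 UMIs a cell these bounds were 0.242, 0.283 and 0.0808, and without cells over 10000 UMIs that of Crabp2 was 0.423, so that they then gave no direction. Of their 317 Il13 UMIs, 315 lay in 1 cell. The resistant Cyp11a1+ T cells numbered 7, of which 6 had Cd8a and 1 had Cd4. In CD8 cells the order of the libraries was the opposite, with 22 Cyp11a1 UMIs in 5 resistant cells and 5 UMIs in 3 sensitive cells (ratio 0.313, 0.0926 to 0.847). All 5 of these resistant CD8 cells held a mast cell or basophil marker, and without such cells 0 and 3 UMIs remained. When cells with a mast cell or basophil marker were left out, resistant T cells kept 2 Cyp11a1 UMIs and sensitive T cells 276. Those markers, of which 11 of 12 were detected and Prss34 was at 0 in both T cell gates, summed to 668 CPM in resistant and 184.6 CPM in sensitive T cells.

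**Figure D3:**
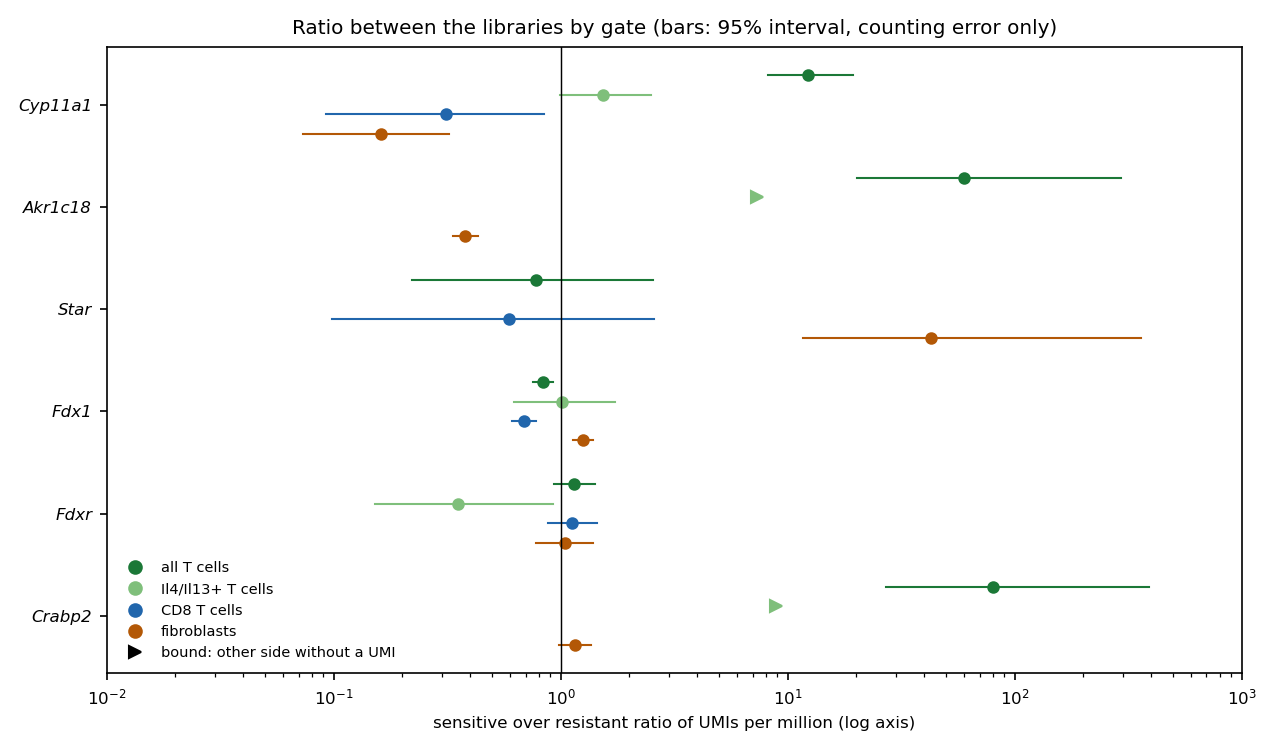
Sensitive over resistant ratio of CPM (log axis) for each gene in all T cells, Il4/Il13+ T cells, CD8 T cells and fibroblasts. Points are ratios, bars 95% intervals, triangles lower bounds where the resistant side had no UMI, and pairs with at most 3 UMIs on each side are left out. Cyp11a1 lies at 12.3 in all T cells and 0.161 in fibroblasts, and Akr1c18 at 60.1 and 0.380.

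Fibroblasts in the same libraries expressed a different subset of these genes. Akr1c18 was found in 102 of 829 sensitive and 214 of 609 resistant fibroblasts, at 28.0 CPM (25.2 to 30.97) and 73.6 CPM (68.5 to 79.0). The ratio of 0.380 (0.335 to 0.431) had the opposite direction to that in T cells, although the difference between the cell types was not tested. Cyp11a1 counted 10 UMIs in sensitive and 48 UMIs in resistant fibroblasts (ratio 0.161, 0.0728 to 0.323). Both enzymes were thus lower in sensitive than in resistant fibroblasts. Set against all T cells of the same library, Cyp11a1 was low in sensitive fibroblasts, with a ratio of 0.0251 (0.0119 to 0.0468). In the resistant library it was higher in fibroblasts than in T cells, with a ratio of 1.91 (1.16 to 3.24). The part of fibroblast RNA in the T cell levels was not tested. Star counted 111 UMIs in 14 sensitive fibroblasts and 2 UMIs in 2 resistant ones, a ratio of 43.0 (11.6 to 360), with 60.4% of the sensitive UMIs in 3 cells. All 14 of these cells had Fdx1. Crabp2 stood at 27.8 and 24.2 CPM (ratio 1.15, 0.980 to 1.36) and Fdxr at a ratio of 1.04 (0.782 to 1.39), both with intervals that included 1, and Fdx1 stood at 1.25 (1.13 to 1.39).

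The fibroblasts that held each gene differed. Split by Pi16, a marker of resting adventitial fibroblasts, or Acta2, a marker of contractile fibroblasts (splits chosen after seeing the values), 99 of 102 sensitive and 211 of 214 resistant Akr1c18+ fibroblasts were Pi16+. Pi16 was however present in 714 of 829 and 579 of 609 fibroblasts. In Acta2+ fibroblasts Akr1c18 stood at 11.9 and 10.7 CPM, against 36.8 and 104 CPM in those without Acta2. Crabp2 had the reverse order, at 71.1 and 66.3 CPM in Acta2+ cells against 4.03 and 3.97 CPM. Of the 14 Star+ sensitive fibroblasts, 12 had Acta2 and 9 had Crabp2, and 4 of the 52 Crabp2+ sensitive fibroblasts (7.69%) had Akr1c18, against 12.3% of all sensitive fibroblasts. The Star+ and Crabp2+ fibroblasts were deeper than the others, with medians of 44220.5 and 32871.5 UMIs against 13214 and 12977 in those without the gene, and the part of depth in these overlaps was not tested.

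The enzymes downstream of pregnenolone were then examined. No UMI of Hsd3b1, Hsd3b2, Hsd3b3 or Hsd3b6, which make progesterone, was counted in any T cell. At a floor of 3 counts this leaves up to about 0.299 CPM in sensitive and 0.289 CPM in resistant T cells. The limit is looser in the 66 Il4/Il13+ CD4 cells of the sensitive library. They held 493801 UMIs, so the same floor leaves up to about 6.08 CPM there. The only UMI of these Hsd3b genes was of Hsd3b2 in a resistant fibroblast. Hsd3b7, which acts in bile acid synthesis, had 16 and 8 T cell UMIs and 835 and 661 in fibroblasts. Cyp17a1, Cyp19a1, Cyp11b1 and Cyp11b2, which make androgens, estrogens and corticoids, were at 0 in all kept cells, and Cyp21a1 was seen in fibroblasts only (13 and 5 UMIs). Among relatives of Akr1c18, Akr1c13 was the most counted in T cells (124 and 72 UMIs), while Akr1c14 lay in fibroblasts (145 and 103 UMIs) and had none in T cells.

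In the list of other steroid enzymes and transport proteins, 2 of 19 eligible genes were at least 2-fold higher in sensitive T cells and none was lower, against 4.93% and 1.36% of all genes. The same shares apply to the lists that follow. They were Nr4a1, a nuclear receptor induced by T cell receptor signals (190 against 68.0 CPM, ratio 2.80, 2.56 to 3.05), and Hsd3b7 (2.07, 0.836 to 5.59). In Il4/Il13+ against other CD4 cells, 2 of 12 were higher and 3 lower, against 4.06% and 9.69% of all genes. Lipe, a lipase that frees stored cholesterol esters, was at 3.15 (1.09 to 11.1), and Hsd17b10, a mitochondrial dehydrogenase, at 2.05 (1.37 to 3.09). Hsd11b1, which regenerates glucocorticoid, and the cholesterol carriers Stard3 and Stard4 were at 0.472 (0.189 to 1.09), 0.420 (0.133 to 1.15) and 0.387 (0.137 to 0.961).

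Of 26 genes of cholesterol synthesis and supply, 1 was higher in sensitive T cells, the exporter Abca1 (5.03, 2.19 to 13.4), and 25 lay within 2-fold with a list median of 0.946. Against other CD4 cells, 1 of 10 was higher, the synthesis enzyme Fdps (2.20, 0.993 to 5.24), and none lower. No steroid receptor of 6 eligible passed 2-fold between libraries, nor of 3 between the CD4 gates. The same held for the single eligible ferredoxin partner. The retinoid list had 4 of 10 higher in sensitive T cells, with a list median of 1.69. They included the receptors Rxra (2.76, 1.58 to 5.04) and Rarg (2.09, 1.56 to 2.80) and the retinol dehydrogenase Rdh10 (2.21, 1.40 to 3.57). In Il4/Il13+ CD4 cells Fabp5, which binds retinoic acid and fatty acids, was at 2.31 (1.82 to 2.95) and Rarg at 0.365 (0.141 to 0.845).

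Of 15 eligible genes of the type 2 helper list 13 were at least 2-fold higher in sensitive T cells, with a list median of 4.85 against 1.11 for all genes. Il4 stood at 87.5 against 1.73 CPM (ratio 50.5, 31.8 to 85.6), Il5 at 39.6 (24.9 to 67.2), Hdc at 17.9 (10.8 to 31.8), Il10 at 16.7 (7.85 to 42.5), Il13 at 8.78 (7.82 to 9.87) and Penk, which encodes an opioid precursor, at 6.78 (6.23 to 7.39). A single cell held 606 of the 878 sensitive Il4 UMIs and 973 of the 2772 sensitive Il13 UMIs. Of the 327 resistant Il13 UMIs, 315 lay in 1 cell. The intervals of these ratios do not cover such uneven spread over cells. Gata3 was at 2.69 (2.40 to 3.02). Inside the sensitive library, 8 of 13 were higher in Il4/Il13+ than in other CD4 cells (4.06% of all genes), with Il4 and Il13 set by the gate. Il5 was at least 196-fold higher, from 561 UMIs in 7 of the 66 cells, while Gata3 was at 1.90 (1.51 to 2.39) and Areg, a growth factor, was lower at 0.200 (0.0981 to 0.374). Areg had the reverse order over T cells of any Cd4 and Cd8 status, with 429 CPM in Il4/Il13+ and 70.8 CPM in other sensitive T cells.

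**Figure D4:**
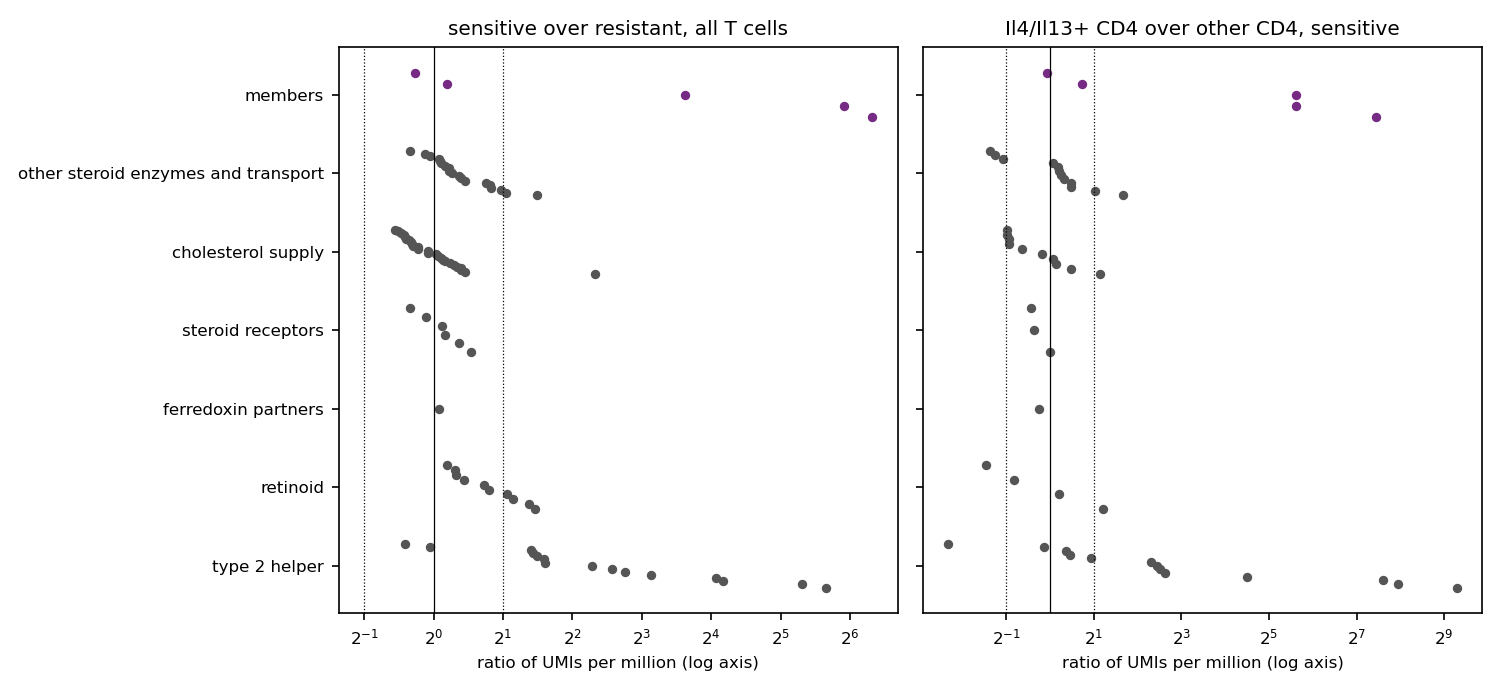
Ratio of CPM (log axis) for each eligible gene of the members and of 6 related lists, between the libraries in all T cells (left) and between Il4/Il13+ and other CD4 cells of the sensitive library (right). Each point is a gene and dotted lines mark 2-fold. On the left, 3 of 5 members and 13 of 15 type 2 helper genes lie past 2-fold, against 1 of 26 cholesterol supply genes.

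Levels were followed over 20 points, each a gate with at least 10 cells in a library, as log2(CPM + 10), among 13526 other genes. The points share 2 libraries, so Pearson correlations are given as descriptions. Some of the gates were split on Il4 and Il13, which by itself sets part of the profile of these 2 genes. Nearest to Cyp11a1 were the noncoding gene 1700061F12Rik (0.983), Il4 (0.969), 4932438H23Rik (0.948), Frzb (0.934) and the T cell receptor segment Trav4-3 (0.922). Nearest to Crabp2 were Pparg (0.894), Grp (0.893), Il5 (0.882), Slc9b2 (0.871) and Msc (0.870). Akr1c18 was instead nearest to Gap43 (0.985), Cfap45 (0.963), 0610009E02Rik (0.913), Bmpr1b (0.901) and Zfp975 (0.887), each with at most 6 UMIs in the Il4/Il13+ CD4 cells. Among members, the correlation was 0.781 for Cyp11a1 and Crabp2, 0.848 for Akr1c18 and Crabp2 and 0.528 for Cyp11a1 and Akr1c18.

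Whole-tumor libraries of the series gave little information on these genes. The control (saline in place of DOX), sensitive and resistant-labelled libraries kept 488, 269 and 263 cells, of which 41, 1 and 16 were gated as T cells. Only 1 Cyp11a1 UMI was counted in them, in a fibroblast of the resistant-labelled tumor, and Akr1c18 had none. Fdx1 counted 61, 3 and 69 UMIs, Fdxr 5, 3 and 4, Crabp2 5, 0 and 0, and Star 1, 0 and 1. With so few T cells, the pattern in the T cell libraries was not detectable at this depth. These libraries were counted against another gene list and are not compared with the T cell libraries. The tumor called resistant here is named sensitive in another of its sample fields.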

How the data were processed

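Single cell RNA was counted by the authors with Cell Ranger on mm10, version 6.0.0 for the T cell libraries and 3.0.1 for the whole-tumor libraries per the file headers. The deposited values are UMI counts per gene and cell, not normalized. A barcode was kept with 500 or more genes and mitochondrial UMIs of 10% or less (200 genes for whole tumors, whose files hold 0 mitochondrial UMIs, so that a limit of 20% removed nothing). Putative doublets, taken from the top of the Scrublet ranking at 0.8% per 1000 barcodes (scanpy 1.11.5), were dropped, 112 sensitive and 159 resistant. A cell took the lineage with the most marker UMIs among 8 lists, if it had at least 3 UMIs of 2 genes and 2 times those of the next list. UMIs were summed over the cells of a gate and given as CPM with exact Poisson intervals. Ratios of CPM have exact conditional binomial intervals and shares have Clopper-Pearson intervals. UMIs of 1 droplet reaction are not replicates. With 1 library a group no test was run and no p-value is given. A side without UMIs was set to 3 counts. Depth comparisons used cells thinned to 1000 UMIs. For 2-fold counts, a gene needed 20 UMIs over both sides, and its side at 0 was also set to 3 counts.

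The members and the gene lists were chosen with earlier results of these data known. Named genes were the 6 members, the list genes with at least 20 UMIs and past 2-fold in all T cells or between the CD4 gates (at most 6 a list, by fold), the Hsd3b genes, Il4, Il13 and Gata3, and the 5 genes with the profile nearest to Cyp11a1, Akr1c18 and Crabp2 among genes with at least 50 UMIs. Areg, other relatives and enzymes at 0 were named after their values were seen. Some list genes are not reported here. Ratio intervals were tested on simulated data. The barcode filter, doublets, gates, marker-bearing cells, scaling, top cells and depth were varied.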

Additional observations from a re-analysis of the deposited data

Results flagged for a closer look

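In 4 cases the sensitive over resistant ratio lay above 1 in one set of cells and below 1 in another, with both intervals clear of 1. Each library is a single pool and the difference between the sets was not tested. In 1 of these cases the sets were CD8 cells and all T cells, of which CD8 cells are a part. Cyp11a1 had a ratio of 12.3 in all T cells, 0.161 in fibroblasts and 0.313 in CD8 cells. The CD8 value rested on 5 UMIs in 3 sensitive cells and 22 UMIs in 5 resistant cells. Each of those 5 resistant cells held a mast cell or basophil marker, and without cells that held one 3 sensitive and 0 resistant UMIs remained, so the opposite direction in CD8 cells was lost. Akr1c18 had a ratio of 60.1 in all T cells and 0.380 in fibroblasts. Fdx1 had the reverse, with 0.833 in all T cells and 1.25 in fibroblasts.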

How the results depend on the processing

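No paired analysis was possible because each group has 1 library. Over 29 results and 379 alternative values, 339 did not move beyond the counting error of the value as reported. Of the 174 alternative values for the ratios of Cyp11a1, Akr1c18 and Crabp2 and the share of Cyp11a1+ cells 31 moved, against 9 of 205 for the others, and no ratio clear of 1 turned its direction. Between libraries in all T cells, Cyp11a1 rose to 137 without cells holding a mast cell or basophil marker. With cells thinned to 1000 UMIs it was at least 8.04, Akr1c18 was 15.8 and Crabp2 13.9, and without cells over 10000 UMIs (chosen after seeing the data) Crabp2 was 16.1. Without a mitochondrial limit and at 200 genes, which kept 2991 resistant T cells, Cyp11a1 was 16.4. For Il4/Il13+ over other CD4 cells, thinning gave at least 7.64 for Cyp11a1, 26.7 for Akr1c18 and 3.82 for Crabp2, whose interval then reached from 0.547 to 42.2, and Crabp2 was 11.2 without cells over 10000 UMIs. Over CD8 cells, thinning gave 279 for Akr1c18 and at least 26.6 for Crabp2, and Crabp2 was 205 as a mean over cells and 131 without cells over 10000 UMIs. The share of Cyp11a1+ cells fell from 42.4% to 16.7% on thinning. The cause of these shifts was not tested.

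Between libraries in Il4/Il13+ CD4 cells the values are lower bounds set by 4 resistant cells. For Cyp11a1, Akr1c18 and Crabp2 they were 1.70, 1.55 and 1.30 with 2 UMIs of Il4 and Il13 required, 2.31, 1.08 and 1.74 without cells holding a mast cell or basophil marker, 2.55, 1.74 and 1.13 without the highest cell, 1.13, 2.38 and 0.423 without cells over 10000 UMIs, and 0.242, 0.283 and 0.0808 on thinning, so a bound under 1 gives no direction. In all Il4/Il13+ T cells (chosen after seeing the data) Cyp11a1 was 1.53, and with cells holding a mast cell or basophil marker left out as well it was 9.45 and Akr1c18 at least 2.31. What the depth of these 4 cells allows is little: 28400 UMIs in all.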
